A study of Mus musculus with 2 samples.

Results

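The 10 genes studied here belong to or border on the muscle ubiquitin system, and they were followed from muscle stem cells (MuSCs) to fibres in a mouse plantaris single-cell series. They were chosen by name, 10 of the 32285 genes in the matrices, and all 10 had UMIs in both libraries. Ubiquitin is passed from an activating enzyme (E1) through a conjugating enzyme (E2) to a substrate that a ligase (E3) selects, and chains of ubiquitin send many substrates to the proteasome. In muscle some ligases are known for their part in protein breakdown during atrophy and others for building and maintaining the sarcomere or for stem cell function. Trim63 (MuRF1), Trim55 (MuRF2) and Trim54 (MuRF3) are RING ligases of the sarcomere and microtubules. Fbxo32 (atrogin-1), Fbxo30 (MUSA1) and Fbxo40 are F-box proteins, which hold the substrate in a cullin-RING ligase. Asb2 and Asb5 are ankyrin-repeat SOCS box proteins, which serve as substrate receptors of other cullin-RING ligases. Nedd4 is a HECT ligase made in many cell types. Murc is listed in the files as Cavin4, its current symbol. It codes for a muscle coat protein of caveolae and is not a ubiquitin ligase, so its values are given as those of a muscle gene outside the ubiquitin system.

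The mice carried Pax7rtTA and TRE-H2B-GFP, in which doxycycline and a Pax7-driven transactivator induce a nuclear GFP, and were 26 weeks old. By the labels, both groups had received doxycycline at 2.0 mg/ml in water with 2% sucrose for 2 weeks. The published methods name a higher share of sucrose and a washout between doxycycline and surgery. The sham group had its plantaris tendon probed, and the MOV group (mechanical overload) had synergist muscle removed, so that the plantaris took up the load for 5 days. Cells were stained for VCAM, CD31, CD45 and Sca1, sorted and sequenced with the 10x 3′ kit as 1 sham library and 1 MOV library. The sources differ on whether a library came from a single mouse or from several. The sort was meant to keep VCAM+ cells without the endothelial, immune and fibroblast markers CD31, CD45 and Sca1, so that fibre droplets are outside its aim. With 1 library per group there is no replicate check, and no p-value is given. Each ratio below carries an exact 95% interval that covers counting error only.

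Every barcode was placed in a class by the UMIs (unique molecular identifiers, counted molecules) of marker genes, none of which is among the 10 genes. Levels are given as CPM, the UMIs of a gene per 1000000 UMIs of its class, which may be compared between classes and not between genes. Fibre droplets had at least 5 UMIs of the adult myosins Myh4, Myh1, Myh2 and Myh7 together, at 1000 CPM or more and above those of the embryonic myosins, and were split by the myosin with over 50% of these UMIs. Late myocytes had at least 5 UMIs of the embryonic and perinatal myosins Myh3 and Myh8 and Myog cells at least 3 UMIs of the differentiation factor Myog, both at 200 CPM or more, and MuSCs at least 2 UMIs of the stem cell factors Pax7 and Myf5. Late myocytes also needed at least as many UMIs of embryonic and perinatal as of adult myosins. MuSCs also needed more UMIs of Pax7 and Myf5 than of Pdgfra, Pecam1, Ptprc, Sox10, Tnmd and Kcnj8 together. Droplets with at least 2 UMIs of the fibroblast gene Pdgfra, and more than of Pax7 and Myf5 together, were called stromal. The stromal droplets showed how much free RNA of muscle genes the other cells held. Each barcode took the first class it met in this order. The sham library had 1100 barcodes and 7302661 UMIs, and the MOV library 3854 barcodes and 88498487 UMIs. The sham library held 431 fibre droplets, 78 MuSCs, 1 Myog cell, no late myocyte and 29 stromal droplets. The MOV library held 25 fibre droplets, 1264 MuSCs, 203 Myog cells, 43 late myocytes and 426 stromal droplets. Thus 7.09% of sham and 32.8% of MOV barcodes met the gate for the labelled cell type.

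Acta1, the actin of adult fibres, was at 52439 CPM in sham fibre droplets, 44913 in MOV fibre droplets, 295 in sham MuSCs and 142 in sham stromal droplets. Pax7 was at 166 CPM in sham MuSCs and 2.12 in sham fibre droplets. The fibre droplets of the libraries were not alike, because those of MOV also held Myog at 664, Mymk, a fusion gene, at 553 and Myh3 at 408 CPM, against 1.77, 0.353 and 0.353 in sham. Of the MOV fibre droplets, 10 of 25 held a UMI of Myog, Myh3, Myh8, Pax7 or Myf5, against 14 of 431 in sham.

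In all 44 barcodes occurred in both libraries, 39 of them with more UMIs in sham and 5 with more in MOV. The shallower copy held between 0.348% and 4.32% of the UMIs of the deeper. They included 7 of the 78 sham MuSCs, among these 6 of the 9 cycling MuSCs, the sham Myog cell, 20 sham fibre droplets and 3 of the 25 MOV fibre droplets. The 9 cycling sham MuSCs held 514196 of the 1129180 UMIs of sham MuSCs. Values without the barcodes of both libraries therefore stand beside those with them wherever they moved a result.

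**Figure D1:**
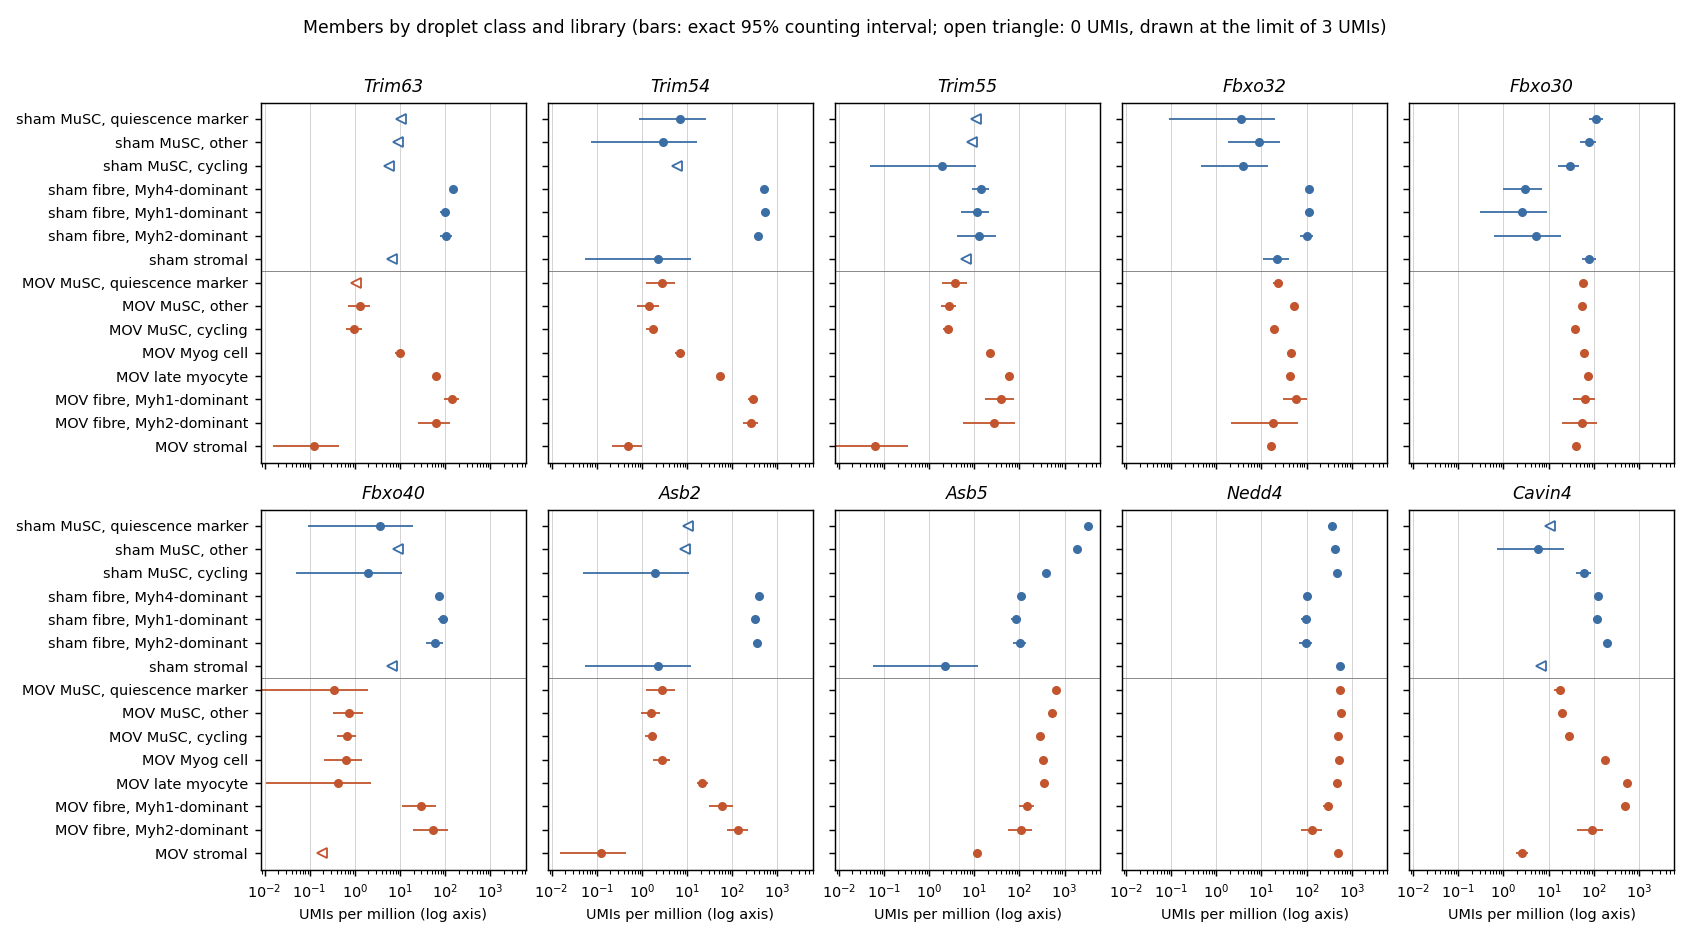
CPM (log axis) of each of the 10 genes in each droplet class, with sham classes in blue above the line and MOV classes in orange below it. Points are pooled levels with their exact 95% counting interval, and open triangles mark classes with 0 UMIs at the limit that 3 UMIs set, while intervals below the axis are cut at its left edge. Trim63, Trim54, Fbxo40 and Asb2 lay highest in fibre droplets, Asb5 lay highest in sham MuSCs, and Nedd4 lay lowest in sham fibre droplets.

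All 10 genes differed between fibre droplets and MuSCs of the sham library by at least 2-fold with an interval that left out 0 on the log2 scale, 7 of them higher in fibres and 3 lower. Of all 8127 genes tested (those with at least 20 UMIs in both classes together), 20.3% were higher in fibres by this rule and 48.8% lower. The median log2 ratio was 4.15 over the 10 genes and -0.98 over all genes. In the MOV library 6 of the 10 genes were higher in fibre droplets and 2 lower, against 12.7% and 18.1% of 10457 genes, with a median log2 ratio of 3.69 over the 10 genes and -0.29 over all genes. CPM values depend on the rest of the RNA, and a few sarcomere genes fill much of a fibre library. Scaling by TMM raised every sham ratio by 0.87 and every MOV ratio by 0.07 on the log2 scale and changed no call. Median-of-ratios scaling raised them by 0.87 and 0.32, which in MOV ended the call of Nedd4 (-0.83) and took Fbxo32 past 2-fold (0.29 to 1.81), as did leaving out fibre droplets with a UMI of Myog, Myh3, Myh8, Pax7 or Myf5 (log2 1.35, 0.35 to 2.20).

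The 3 MuRF ligases were higher in fibre droplets than in MuSCs in both libraries. Trim63 (ENSMUSG00000028834, chr4:134315120-134329629, plus strand, GRCm38) had 360 UMIs in sham fibre droplets and 0 in sham MuSCs. Its level was 127 CPM in sham fibres and 127 in MOV fibres, while MOV MuSCs were at 0.992 and MOV stromal droplets at 0.125. Trim63 was at least 47.8-fold higher in fibre droplets than in MuSCs of the sham library, taking 3 UMIs as the limit for the class with none, and 128-fold higher in the MOV library (95% interval 6.34 to 7.66 on the log2 scale). Trim54 (ENSMUSG00000062077, chr5:31116712-31137630, plus strand) was at 499.6 CPM in sham fibres and 293 in MOV fibres, against 2.66 in sham MuSCs and 1.71 in MOV MuSCs. These were ratios of 188-fold and 171-fold (log2 7.55, 6.00 to 9.83, and 7.42, 6.96 to 7.89), and the sham MuSC level lay beside the 2.22 CPM of sham stromal droplets. Trim55 (ENSMUSG00000060913, chr3:19644474-19692421, plus strand) was at 13.1 CPM in sham fibres and 33.2 in MOV fibres. It was 14.8-fold higher in fibres than in MuSCs of sham (37 UMIs against 1, log2 3.88, 1.32 to 9.22) and 12.3-fold higher in MOV (11 against 109).

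The F-box genes split into different patterns. Fbxo40 (ENSMUSG00000047746, chr16:36963460-36990467, minus strand), known for acting on the insulin receptor substrate Irs1, was at 75.9 CPM in sham fibres and 1.77 in sham MuSCs, and at 39.3 and 0.670 in MOV. It was 42.9-fold and 58.6-fold higher in fibres (log2 5.42, 3.55 to 8.48, and 5.87, 4.80 to 6.88). Fbxo32 (ENSMUSG00000022358, chr15:58175879-58214932, minus strand) was at 113 CPM in sham fibres and 5.31 in sham MuSCs, a ratio of 21.3-fold (log2 4.41, 3.28 to 5.87). In MOV it was at 48.3 in fibres and 28.1 in MuSCs, and this ratio of 1.72-fold had an interval that held 0 (log2 0.78, -0.03 to 1.49). Fbxo30 (ENSMUSG00000047648, chr10:11281330-11298052, plus strand) ran the other way in sham, at 3.18 CPM in fibres with 9 UMIs and 64.6 in MuSCs with 73, which made it 20.3-fold lower in fibres (log2 -4.35, -5.53 to -3.34). In MOV its levels of 57.4 in fibres and 44.7 in MuSCs differed by a log2 ratio of 0.36 (-0.37 to 1.01). Stromal droplets held Fbxo30 at 79.9 CPM in sham and 41.6 in MOV and Fbxo32 at 22.2 and 16.0, so neither was confined to muscle cells in these libraries.

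The ASB genes went in opposite directions. Asb2 (ENSMUSG00000021200, chr12:103321142-103356001, minus strand), known for acting on filamins in muscle, was at 360.5 CPM in sham fibres with 1021 UMIs and at 0.886 in sham MuSCs with 1 UMI. It was at 93.6 in MOV fibres and 1.71 in MOV MuSCs, a ratio of 54.7-fold (log2 5.77, 5.11 to 6.40), and the sham log2 ratio was 8.67 (6.19 to 13.97). Asb5 (ENSMUSG00000031519, chr8:54529580-54587842, plus strand) was at 1567 CPM in sham MuSCs and 101 in sham fibres, and so 15.6-fold lower in fibres (log2 -3.96, -4.15 to -3.78). In MOV it was at 379.7 in MuSCs and 136 in fibres, 2.79-fold lower (log2 -1.48, -1.94 to -1.06). Its stromal levels were 2.22 CPM in sham and 11.6 in MOV, below those of both fibre classes.

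Nedd4 (ENSMUSG00000032216, chr9:72662346-72749852, plus strand) was at 436 CPM in sham MuSCs, 543 in sham stromal droplets and 102 in sham fibres. It was 4.29-fold lower in fibres than in MuSCs of sham (log2 -2.10, -2.31 to -1.89) and 2.22-fold lower in MOV (log2 -1.15, -1.49 to -0.83). Cavin4 (ENSMUSG00000028348, chr4:48663514-48673502, plus strand) was at 133 CPM in sham fibres and 29.2 in sham MuSCs, 4.55-fold higher in fibres (log2 2.19, 1.67 to 2.75). It was 13.6-fold higher in MOV fibres than in MOV MuSCs (log2 3.76, 3.47 to 4.04), and the log2 ratio was 1.73 (0.82 to 2.51) without MOV fibre droplets that held a UMI of Myog, Myh3, Myh8, Pax7 or Myf5. The sham MuSC level of Cavin4 came mainly from the cycling cells, which held 31 of its 33 UMIs.

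Without the barcodes of both libraries all 10 sham calls kept their direction. The log2 ratio of Asb5 became -4.67, that of Cavin4 3.11 and that of Nedd4 -1.76. Trim55, Asb2 and Trim63 then had no UMI in the 71 sham MuSCs left, and their log2 ratios were at least 1.56, 6.37 and 4.95. With a MuSC gate of 1 Pax7 UMI the log2 ratio of Trim63 was 4.08.

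**Figure D2:**
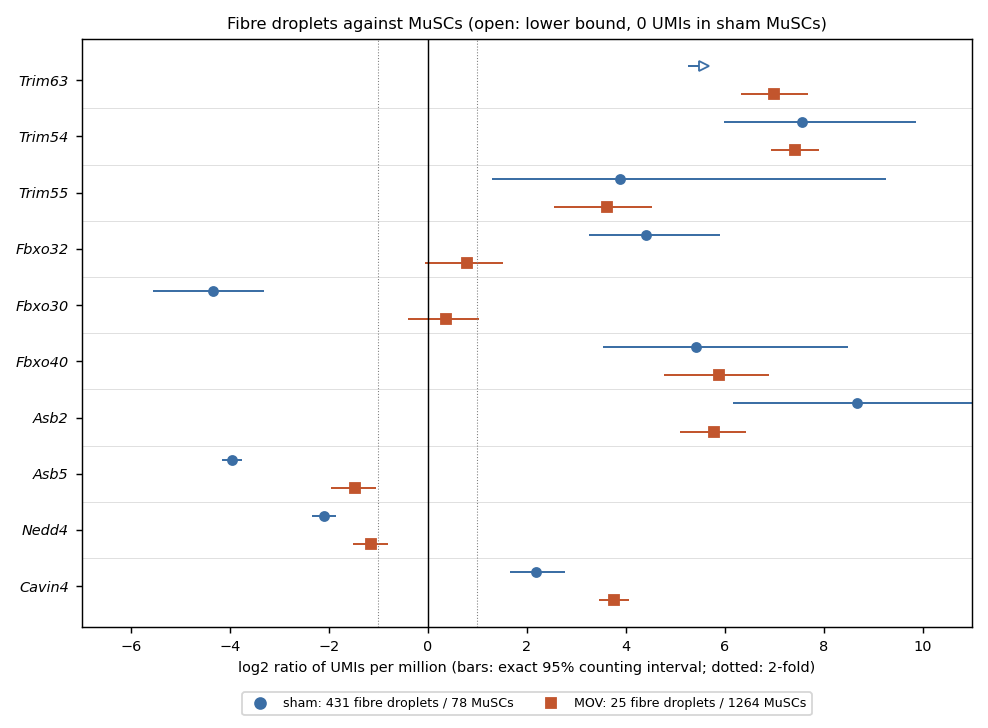
Log2 ratio of CPM in fibre droplets over MuSCs for the 10 genes, in the sham library (blue circles) and the MOV library (orange squares), with exact 95% counting intervals and dotted lines at 2-fold. The open marker for Trim63 is a lower bound, the sham interval of Asb2 runs past the axis to 13.97, and Fbxo30 lay at -4.35 in sham and 0.36 in MOV.

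Single droplets were sparse for most of these genes, and shares were compared after each droplet was thinned to 2000 UMIs. Of 322 sham fibre droplets with that depth (109 shallower droplets were left out), 58.7% held a UMI of Trim54, 43.8% of Asb2, 22.4% of Trim63, 20.8% of Cavin4, 20.5% of Fbxo32, 10.9% of Fbxo40 and 4.04% of Trim55. Unthinned, over all 431, the shares were 72.9%, 63.6%, 40.1%, 40.8%, 38.7%, 27.1% and 7.19%. None of the 29 thinned sham stromal droplets held any of these 7 genes, which allows a share of up to 10.3% (3 of 29 droplets) after thinning, and unthinned 10.3% of them held Fbxo32 and 3.45% each Trim54 and Asb2. Before thinning the median depth was 4295 UMIs in sham fibre droplets and 11880 in sham stromal droplets. Asb5 was found in 83.3% of 78 sham MuSCs and 17.7% of sham fibre droplets, and Nedd4 in 52.6% and 17.4%. Trim63 and Fbxo32, both known for rising in atrophy, had UMIs together in 95 of the 431 sham fibre droplets, and 186 held neither. The number of the 10 genes found in a sham fibre droplet ran from 0 in 31 droplets to 9 in 5 droplets, most often 2, in 78 droplets. These joint counts are unthinned, over droplets of 503 to 50885 UMIs. The part of depth in them was not tested.

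Values of single droplets ran over a wide range even for the best detected genes. Among the 322 sham fibre droplets with at least 2000 UMIs, Trim54 ran from 0 through a median of 418 to 6403 CPM, and Asb2 from 0 through 249.9 to 2095. In 78 sham MuSCs Asb5 had a median of 1627 CPM and ran from 0 to 10661. Counting error is large at such depths, and its share in these ranges was not tested.

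By the rule used, no tested gene differed between fibre droplets of different dominant myosin, though some intervals reached past 2-fold. The sham library held 267 Myh4-dominant, 115 Myh1-dominant and 44 Myh2-dominant fibre droplets and none with Myh7, the myosin of slow fibres. None of the 9 genes tested was 2-fold different between Myh1- and Myh4-dominant droplets, where 8.17% of 5114 genes were, or between Myh2- and Myh4-dominant droplets, where 19.6% of 4709 genes were. The median log2 ratio over the tested genes was -0.10 and -0.14, and over all genes 0.06 and 0.10. Between Myh2- and Myh1-dominant droplets none of 8 was, against 10.2% of 3639 genes. As a check on the split, Pvalb, a calcium buffer of fast fibres, was at 6748 CPM in Myh4-dominant and 107 in Myh2-dominant droplets.

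Some differences under 2-fold had intervals that left out 0. Trim63 was at 147 CPM in Myh4-dominant, 98.7 in Myh1-dominant and 107 in Myh2-dominant droplets, with a log2 ratio of -0.57 (-0.96 to -0.20) for Myh1 over Myh4. Asb2 was at 387, 315 and 352 CPM in the same order, with a log2 ratio of -0.30 (-0.51 to -0.08) for Myh1 over Myh4. Trim54 was at 516, 526 and 365, and the Myh2-dominant level was lower than that of both other groups (log2 -0.50, -0.77 to -0.24, over Myh4 and -0.53, -0.81 to -0.25, over Myh1). Cavin4 was at 124, 121 and 201, higher in Myh2-dominant droplets than in both others (log2 0.69, 0.30 to 1.08, and 0.73, 0.27 to 1.17). Fbxo32 lay at 114, 115 and 102 CPM, Nedd4 at 105, 97.4 and 96.5, and Asb5 at 108, 83.5 and 102, and no interval for these 3 left out 0. TMM scaling lowered the Myh1 over Myh4 ratios by 0.20 and the Myh2 over Myh4 ratios by 0.41 on the log2 scale, which is near the size of these differences.

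**Figure D3:**
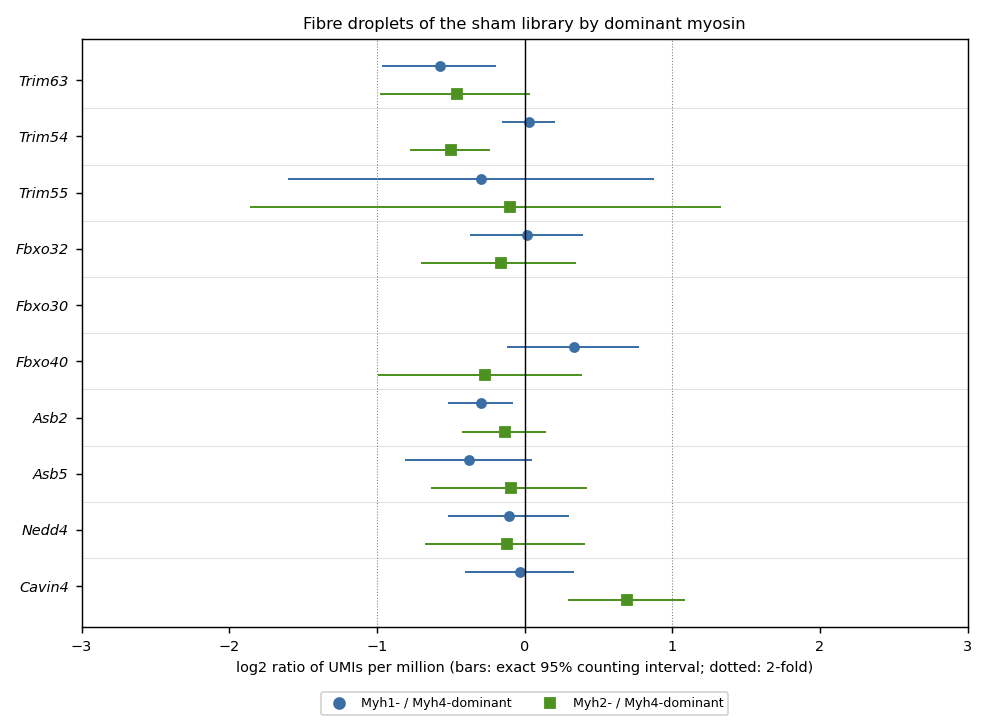
Log2 ratio of Myh1-dominant (blue circles) and Myh2-dominant (green squares) over Myh4-dominant fibre droplets of the sham library, with exact 95% counting intervals and dotted lines at 2-fold. No point lay outside the dotted lines, Trim54 lay at -0.50 and Cavin4 at 0.69 for Myh2 over Myh4, and Fbxo30 is not drawn because it had fewer than 20 UMIs.

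The classes of the MOV library can be set in an order of differentiation by their markers, from MuSCs through Myog cells and late myocytes to fibre droplets. The order is one of markers and was not followed in time. From MuSCs to Myog cells, 4 of the 10 genes were higher and 0 lower, against 4.51% and 6.12% of 13258 genes, and the median log2 ratio was 0.69 over the 10 and -0.09 over all genes. From Myog cells to late myocytes, 5 of 9 tested genes were higher and 0 lower, against 5.82% and 5.54% of 10837 genes (medians 1.39 and -0.12). From late myocytes to fibre droplets, 3 of 9 were higher and 2 lower, against 7.96% and 13.8% of 7837 genes (medians -0.37 and -0.36).

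Trim63, Trim54 and Asb2 stepped up towards the fibre, at different points. Trim63 was at 0.992 CPM in MuSCs, 10.0 in Myog cells, 62.7 in late myocytes and 127 in fibre droplets. Its log2 ratios for the 3 steps were 3.34 (2.77 to 3.92), 2.65 (2.24 to 3.06) and 1.02 (0.49 to 1.52), the last of them just at 2-fold and 0.20 when fibre droplets with a UMI of Myog, Myh3, Myh8, Pax7 or Myf5 were left out. Trim54 was at 1.71, 7.10, 53.9 and 293 CPM, with log2 ratios of 2.05, 2.93 and 2.44. Asb2 was at 1.71, 2.79, 21.7 and 93.6 CPM, and its first step held 0 (log2 0.70, -0.06 to 1.42) while the later ones did not (2.96, 2.22 to 3.75, and 2.11, 1.42 to 2.78).

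Trim55 and Cavin4 were highest at or before the late myocyte. Trim55 was at 2.70, 22.2, 58.1 and 33.2 CPM, with log2 ratios of 3.04 (2.68 to 3.40), 1.39 (1.06 to 1.72) and -0.81 (-1.84 to 0.08). Cavin4 was at 25.6, 174, 559 and 347 CPM, with log2 ratios of 2.77 (2.65 to 2.88), 1.68 (1.57 to 1.79) and -0.69 (-0.98 to -0.41), the last of them -2.72 (-3.63 to -1.94), and so called lower, without the same droplets. A single droplet held 45 of the 115 Cavin4 UMIs of the MOV fibre droplets, 39.1% of them.

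Fbxo40 was near 0 in every class without adult myosin. It had 27 UMIs in MuSCs, 5 in Myog cells, 1 in late myocytes and 13 in fibre droplets, or 0.670, 0.634, 0.418 and 39.3 CPM. The last step had 14 UMIs in all, under the minimum of 20, and was not called.

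Fbxo32, Fbxo30, Nedd4 and Asb5 moved little before the fibre. Fbxo32 was at 28.1, 44.9, 42.6 and 48.3 CPM and Fbxo30 at 44.7, 61.2, 74.4 and 57.4, with no step of 2-fold. Nedd4 was at 516, 517, 482 and 233 CPM, with a log2 ratio of 0.00 (-0.05 to 0.05) for Myog cells over MuSCs and -1.05 (-1.40 to -0.72) for fibres over late myocytes. Asb5 was at 379.7, 331, 355 and 136 CPM, with a log2 ratio of -1.38 (-1.85 to -0.95) at the last step. With TMM factors the last step of Nedd4 was -0.97 and with median-of-ratios factors -0.83, both under 2-fold.

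**Figure D4:**
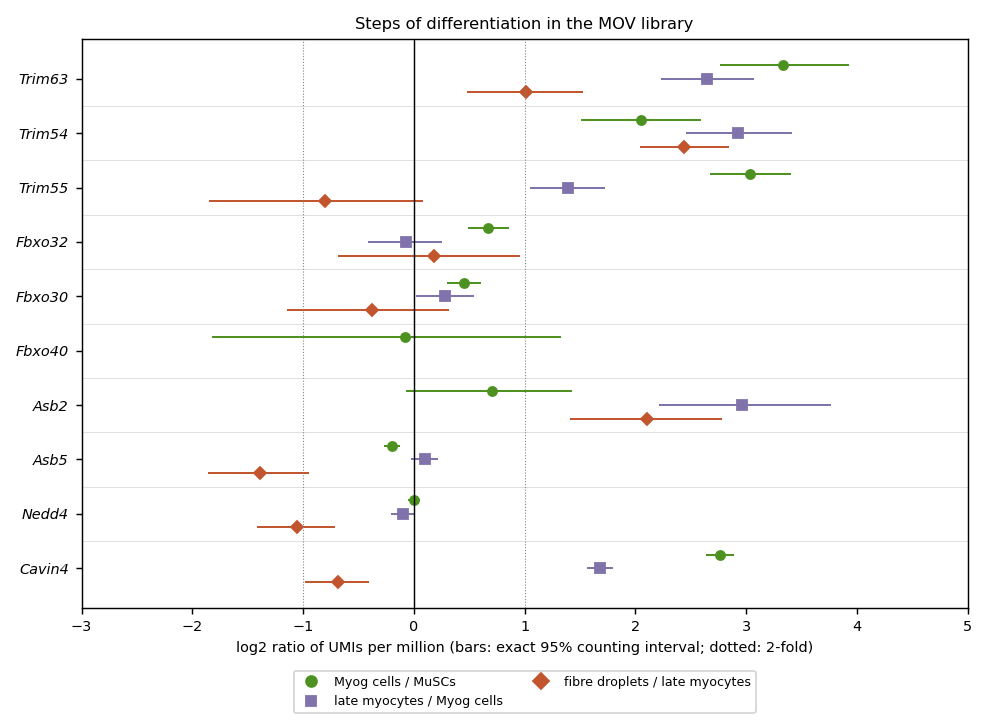
Log2 ratios in the MOV library for Myog cells over MuSCs (green circles), late myocytes over Myog cells (purple squares) and fibre droplets over late myocytes (orange diamonds), with exact 95% counting intervals and dotted lines at 2-fold. Trim63, Trim54, Trim55 and Cavin4 lay right of 2-fold at both earlier steps, and Asb5 and Nedd4 lay left of it at the last.

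The sequences before the transcription start are shown for 3 of the genes that stepped up together, Trim63, Trim54 and Cavin4, and for Fbxo30, which did not, each with a single start in RefSeq (GRCm38.p6). Of the 10 genes, 8 had an entry there, and Fbxo32 and Trim55 did not. Each line gives the 250 bases before the start, 5′ to 3′ on the plus strand. Capitals mark matches on either strand to CANNTG (E-box, the core bound by MyoD-family factors), GTAAACA (bound by FOXO factors), TATAAA, or the MEF2 consensus.
Trim63 chr4:134314870-134315119: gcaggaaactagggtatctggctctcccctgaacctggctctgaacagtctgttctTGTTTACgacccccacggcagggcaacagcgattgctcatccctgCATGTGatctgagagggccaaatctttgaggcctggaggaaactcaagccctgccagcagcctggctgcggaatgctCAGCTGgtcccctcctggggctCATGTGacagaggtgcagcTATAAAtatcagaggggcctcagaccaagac
Trim54 chr5:31116362-31116611: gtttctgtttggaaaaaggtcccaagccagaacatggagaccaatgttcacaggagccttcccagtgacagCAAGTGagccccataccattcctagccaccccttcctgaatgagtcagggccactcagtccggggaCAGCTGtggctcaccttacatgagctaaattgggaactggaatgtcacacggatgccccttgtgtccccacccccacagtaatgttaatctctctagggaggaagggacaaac
Cavin4 chr4:48663264-48663513: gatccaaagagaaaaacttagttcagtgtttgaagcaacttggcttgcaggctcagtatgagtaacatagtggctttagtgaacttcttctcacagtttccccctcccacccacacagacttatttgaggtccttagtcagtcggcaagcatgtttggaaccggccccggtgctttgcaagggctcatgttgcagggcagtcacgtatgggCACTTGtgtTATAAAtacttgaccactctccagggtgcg
Fbxo30 chr10:11281337-11281586: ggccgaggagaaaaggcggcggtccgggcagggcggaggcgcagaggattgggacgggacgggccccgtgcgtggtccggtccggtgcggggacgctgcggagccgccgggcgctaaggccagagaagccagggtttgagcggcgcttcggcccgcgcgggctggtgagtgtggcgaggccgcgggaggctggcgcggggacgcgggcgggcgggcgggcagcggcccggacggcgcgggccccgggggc
The Trim63 window held 3 E-boxes, which began 149, 72 and 50 bases before the start, 1 GTAAACA on the minus strand at 194 and 1 TATAAA at 31. The Trim54 window held 2 E-boxes, at 179 and 113, and Cavin4 held 1 E-box at 39 and 1 TATAAA at 30, while Fbxo30 held none of the 4 motifs. Over all 32851 RefSeq windows of this length, 66.2% held an E-box, 12.4% TATAAA, 3.17% GTAAACA and 2.92% the MEF2 consensus. The matches describe letters and not binding, and the Trim54 start lies 100 bases before the GENCODE gene start. The Fbxo30 window lies inside the GENCODE gene, so that it is no window upstream of the first start annotated there.

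MuSCs of the MOV library fell into 594 cycling cells (at least 3 UMIs of Mki67 and Top2a), 156 cells with a quiescence marker (at least 2 UMIs of Chrdl2, Calcr and Hey1) and 514 others. Asb5 was at 657 CPM in quiescence-marker MuSCs, 530.4 in the others and 290.3 in cycling MuSCs, which made it 2.26-fold lower in cycling than in quiescence-marker cells (log2 -1.18, -1.25 to -1.11). Fbxo32 had another order, at 23.7 in quiescence-marker cells, 53.4 in the others and 18.6 in cycling cells. For Fbxo32 the other MuSCs were 2.25-fold above the quiescence-marker cells (log2 1.17, 0.81 to 1.56), and the cycling cells were 2.86-fold below the other MuSCs (log2 -1.52, -1.69 to -1.34). These were 1 of 8 tested genes higher for other over quiescence marker (of 11223 genes 1.65% were higher and 1.04% lower), 1 of 8 lower for cycling over quiescence marker (of 12300 genes 9.29% were higher and 6.72% lower) and 1 of 10 lower for cycling over other (of 12807 genes 7.48% were higher and 6.11% lower). Nedd4 stayed between 486 and 581 CPM and Fbxo30 between 38.6 and 57.8 over the 3 states. In sham Asb5 was at 3321 CPM in 34 quiescence-marker MuSCs and 1899.6 in 35 others, 1.75-fold apart (log2 -0.81, -0.95 to -0.66), and 0 of 3 tested genes passed 2-fold, against 7.53% of 3545 genes. The 9 cycling sham MuSCs were too few for a ratio and held Asb5 at 391 CPM.

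Between MuSCs of the MOV and the sham library Asb5 was lower and Fbxo32 higher by at least 2-fold with intervals that left out 0, so that 1 of 9 tested genes was higher and 1 lower, against 6.41% and 5.99% of 12021 genes. The median log2 ratio was -0.19 over the members and 0.12 over all genes. Asb5 was at 1567 CPM in sham MuSCs and 379.7 in MOV MuSCs, 4.13-fold lower in MOV (log2 -2.04, -2.12 to -1.97). Within quiescence-marker MuSCs it was 5.05-fold lower (3321 and 657 CPM, log2 -2.34, -2.45 to -2.22), and within the other MuSCs 3.58-fold lower (1899.6 and 530.4, log2 -1.84, -1.96 to -1.72). In each of these states 1 of 5 tested genes, Fbxo32, was higher and 1, Asb5, lower, where 10.8% of 7884 genes were higher and 7.48% lower for quiescence-marker cells and 8.49% of 9624 genes higher and 6.87% lower for the others. The quiescence-marker gate took no account of depth, and its cells had a median of 7967 UMIs in sham and 14968 in MOV. They held Chrdl2 at 508 CPM in sham and 101 in MOV, Calcr at 39.1 and 15.0, and Hey1 at 92.5 and 76.6. Myod1 was at 647 and 112 CPM, so these cells were not a matched state in the 2 libraries. After thinning to 2000 UMIs, Asb5 was found in 83.3% of 78 sham MuSCs and 54.9% of 1263 MOV MuSCs, against 0 of 29 sham and 2.35% of 425 MOV stromal droplets. Without the barcodes of both libraries the log2 ratio in MuSCs was -2.61.

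Fbxo32 was at 5.31 CPM in sham MuSCs, where it had 6 UMIs, and 28.1 in MOV MuSCs, where it had 1135 (log2 2.41, 1.28 to 3.85). It was higher in MOV in quiescence-marker MuSCs (1 UMI against 68, log2 2.74, 0.21 to 8.06, a call lost with median-of-ratios factors at 2.50, -0.03 to 7.82) and in the other MuSCs (3 against 567, log2 2.57, 1.02 to 4.85). The thinned shares were 1.28% of sham and 4.20% of MOV MuSCs, close to the 3.06% of MOV stromal droplets. Trim55 (109 and 1 UMIs, log2 1.61, -0.90 to 6.93) and Fbxo40 (27 and 2 UMIs, log2 -1.40, -3.40 to 1.71) were past 2-fold with intervals that held 0. Nedd4 differed by a log2 ratio of 0.24 (0.12 to 0.38) and Fbxo30 by -0.53 (-0.87 to -0.18), both under 2-fold. Over the 13 alternatives the log2 ratio of Nedd4 ran from 0.14 to 0.56. That of Cavin4 ran from -0.28 to 0.81, so its direction was not stable, and neither gene was called in any alternative. In stromal droplets 0 of 4 tested members were called between the libraries, where 19.4% of 11134 genes were. Asb5 was at 2.22 CPM with 1 UMI in sham and 11.6 in MOV stromal droplets, a log2 ratio of 2.39 whose interval held 0 (-0.10 to 7.70). TMM factors raised the stromal ratios by 0.34, and the interval of Asb5 then left out 0.

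Between the fibre droplets of the libraries 4 of the 10 genes were higher in MOV and 2 lower, against 25.7% and 7.15% of 6186 genes, with medians of 0.22 over the 10 and 0.36 over all genes. Trim63 was at 127 CPM in both (log2 0.00, -0.50 to 0.46). Asb2 was lower in MOV, at 93.6 against 360.5 CPM (log2 -1.95, -2.51 to -1.43), and so was Fbxo32, at 48.3 against 113 (log2 -1.23, -2.05 to -0.51). Fbxo30 was higher, at 57.4 against 3.18 (19 and 9 UMIs, log2 4.17, 2.96 to 5.50), as were Trim55 (log2 1.35), Cavin4 (1.38) and Nedd4 (1.19). Only 25 MOV droplets stand behind these values, and TMM scaling lowered each by 0.80, which left 1 gene called higher, Fbxo30, and 4 lower, since the calls of Trim55, Cavin4 and Nedd4 ended and Trim54 (-1.57) and Fbxo40 (-1.75) were then called lower. Between Myh1-dominant droplets alone (13 in MOV, 115 in sham), 2 of 8 tested genes were higher, Nedd4 (log2 1.65) and Cavin4 (2.02), and 2 lower, Asb2 (-2.42) and Fbxo40 (-1.63), against 28.7% and 13% of 3823 genes. With TMM factors Nedd4 was at 0.72 and no longer called, and Trim54 (-1.78) and Fbxo32 (-1.89) were called lower. The 13 MOV droplets held Myog at 1067, Mymk at 889.6 and Myh3 at 664 CPM, more than the MOV fibre droplets as a whole.

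The RNA of differentiating cells in the MOV fibre droplets went with several of these values. In the 15 MOV and 417 sham fibre droplets without a UMI of Myog, Myh3, Myh8, Pax7 or Myf5, Asb2 alone was still called (log2 -1.55, -2.29 to -0.90). Cavin4 turned to -0.64 (-1.57 to 0.15), Fbxo32 was at -0.66 (-1.68 to 0.20), Trim55 at 0.49 (-1.86 to 2.15), Nedd4 at 0.76 (0.13 to 1.34) and Trim63 at -0.76 (-1.77 to 0.10). Fbxo30 then had 10 UMIs in MOV (65.4 CPM) and 7 in sham (2.65 CPM), under the minimum for a call. Immune markers, 5 genes summed, were at 664 CPM in MOV and 12.0 in sham fibre droplets. Of the 220 MOV UMIs, 207 lay in Myh1-dominant droplets, and the median MOV fibre droplet was at 0. Fibroblast markers, also 5 genes, were at 456 and 6.00 CPM, with Pdgfra at 0 in both. The same list was at 1208 CPM in MOV MuSCs, 718 in Myog cells, 547 in late myocytes and 19554 in stromal droplets. It was thus not confined to fibroblasts. The part of this marker RNA in the ratios above was not tested.

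**Figure D5:**
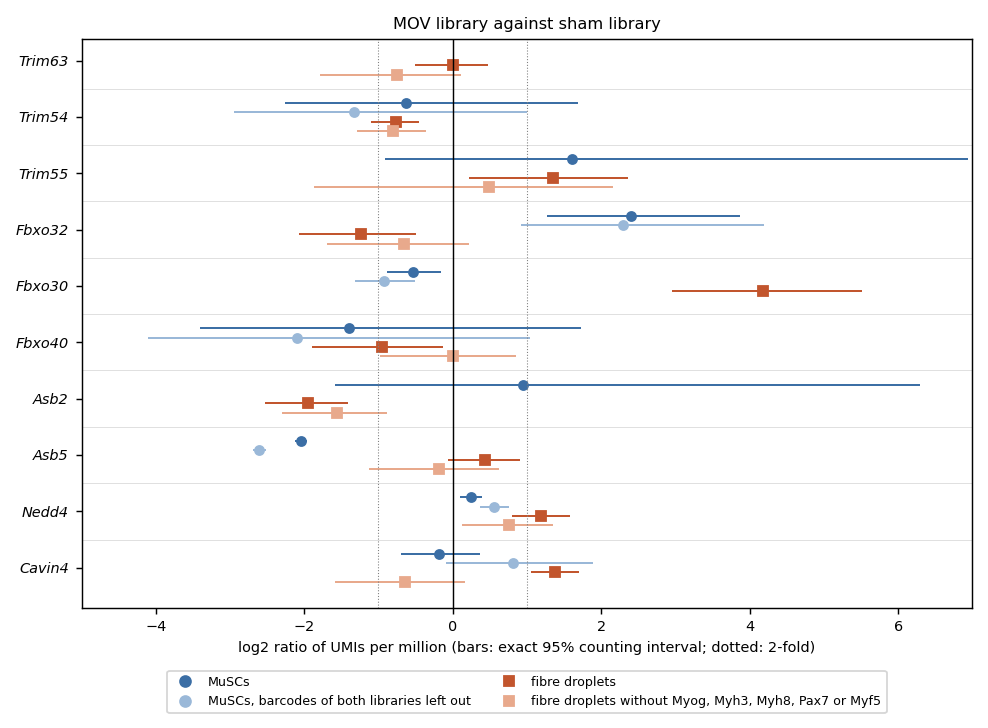
Log2 ratio of the MOV over the sham library for the 10 genes in MuSCs (dark blue; light blue without barcodes of both libraries) and in fibre droplets (dark orange; light orange without droplets that held a UMI of Myog, Myh3, Myh8, Pax7 or Myf5), with exact 95% counting intervals and dotted lines at 2-fold. Values with fewer than 20 UMIs or no bound are not drawn. Asb5 in MuSCs lay at -2.04 and -2.61, and Cavin4 in fibre droplets at 1.38 and -0.64.

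With plain CPM, the rest of the ubiquitin system did not split between fibres and MuSCs in the same way. Of 26 proteasome subunits, 0 passed 2-fold between fibre droplets and MuSCs of sham or of MOV, between Myog cells and MuSCs, between late myocytes and Myog cells, or between MOV and sham MuSCs. Their median log2 ratio for sham fibres over MuSCs was 0.08, where that of all genes was -0.98. Of all genes, 20.3% were higher and 48.8% lower in sham fibres than in MuSCs, and 12.7% and 18.1% in MOV. The shares were 4.51% and 6.12% for Myog cells over MuSCs and 5.82% and 5.54% for late myocytes over Myog cells. For MOV over sham MuSCs they were 6.41% and 5.99%. Scaling by TMM or median-of-ratios factors raised sham fibre over MuSC ratios by 0.87, the same shift for every gene. Neither was applied to this list or the lists below, so whether their counts hold under such scaling was not tested. Of 12 core parts of cullin-RING ligases, 2 were higher and 2 lower in sham fibres. Cand2, a muscle form of the cullin exchange factor, was at 18.7 CPM in sham fibres and 1.77 in MuSCs (log2 3.40, 1.48 to 6.48), while its relative Cand1 was at 2.12 and 53.1 (log2 -4.65, -6.15 to -3.44). Of 16 ubiquitin, E1 and E2 genes 3 were higher and 8 lower, with a median log2 ratio of -0.91 beside the -0.98 of all genes. Ube2d1 (log2 2.58, 2.16 to 3.04) and Ube2b (1.95, 1.77 to 2.14), both E2 enzymes, were among the higher.

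Other substrate receptors of muscle went with Asb2 and Fbxo40. Of 10 tested genes among 16 further ASB genes, 7 were higher and 1 lower in sham fibres than in MuSCs. Asb11 had 250 UMIs against 0 (log2 at least 5.05), Asb12 79 against 1 (4.98, 2.46 to 10.30), and Asb6 was lower (-1.33, -2.55 to -0.10). Of 10 tested Kelch-type adaptors, which serve cullin-3 ligases, 7 were higher and 2 lower. Klhl41, a sarcomere protein linked to nemaline myopathy, was at 501 CPM in sham fibres and 3.54 in MuSCs (log2 7.14, 5.78 to 9.02), and Klhl13 was lower (log2 -5.91, -11.27 to -3.30). In the MOV library Klhl41 went from 6.20 CPM in MuSCs to 60.8 in Myog cells, 362 in late myocytes and 882 in fibre droplets.

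The shares of genes higher (20.3%) and lower (48.8%) among all genes in this comparison stand behind each of these counts. Of 24 further ligases, some of them Trim, F-box or HECT relatives of the 10 genes, 19 were tested. Their median log2 ratio was -1.36. In sham fibres 2 were higher, Wwp1 (log2 4.11, 3.40 to 4.92), a HECT relative of Nedd4, and Fbxl22 (4.37, 1.83 to 9.70), an F-box gene. Of the 19, 12 were lower, with Smurf1 (1 UMI in fibres and 20 in MuSCs, log2 -5.65) and Huwe1 (-2.74, -3.16 to -2.34) among them. Of 12 deubiquitinases 3 were higher, with Usp13 at 95.3 against 1.77 CPM (log2 5.75, 3.88 to 8.80), and 3 lower.

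Known regulators of atrophy genes and reported substrates were looked at in the same way. Of 12 tested regulators 3 were higher and 7 lower in sham fibres, with a median log2 ratio of -1.77. Mstn, which codes for myostatin, had 104 UMIs in sham fibres and 0 in MuSCs (log2 at least 3.79), Klf15, a glucocorticoid target, was at 15.9 against 2.66 CPM (2.58, 0.94 to 4.91), and Nfkb1 (-6.34, -7.36 to -5.49) and Stat3 (-4.07, -4.61 to -3.57) were lower. Of 16 tested genes that code for reported substrates of these ligases 9 were higher and 5 lower. The highest were the sarcomere and energy genes Tnni2 (7.57) and Ckm (7.54), and the lowest were Flna (-8.05), a filamin, and Notch1 (-6.26). Of 9 caveola genes set beside Cavin4, the muscle caveolin Cav3 (log2 5.63, 3.77 to 8.69) and Pacsin3 (4.89, 3.65 to 6.52) were among 3 higher in sham fibres, and 6 were lower, with Cav1 and Cavin2 at 0 UMIs in fibres against 280 and 202 in MuSCs.

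The order of the levels over 13 classes of both libraries with at least 10 droplets shows how closely each gene followed the classes. For Trim63 the 4 highest classes were fibre droplets, 147 to 98.7 CPM, with neighbours that did not differ beyond their counting intervals, followed by late myocytes. For Asb5 each of the 4 highest classes, the non-cycling MuSC states of sham and then of MOV, was above the next beyond its interval, while MOV late myocytes (355) and Myog cells (331) did not differ beyond theirs. For Nedd4 the 9 highest classes lay between 373 and 581 CPM and held MuSCs, stromal droplets and differentiating cells alike. The genes most like Trim63 over these 13 classes, by Pearson's r of log2 of CPM plus 10 among 5245 genes, were Cacng6 (0.991), Myo18b (0.987), Tmod1 (0.987) and Cacnb1 (0.987). For Asb2 they were Gmpr (0.991), Plpp7 (0.990), Eepd1 (0.987) and Txlnb (0.987), for Asb5 Ank3 (0.975), Tmem64 (0.953), Tfam (0.945) and Fry (0.939), for Nedd4 Anxa1 (0.989), Gnb1 (0.989), Mxra7 (0.988) and Anxa2 (0.988), and for Fbxo32 Rab12 (0.945), Cox14 (0.937), Ubl7 (0.935) and Zmat5 (0.933). The classes share 2 libraries and differ in depth, so these values only describe likeness.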

How the data were processed

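Plantaris cells of 1 sham and 1 MOV library were analysed. Per the submitters' processing notes and the labels, Cell Ranger 6.0.0 with an mm10 reference gave the filtered matrices of UMI counts that the authors deposited, and R 4.0.2 and Seurat 4.0.2 are named for later steps. All 4954 barcodes were used as deposited, and classes were formed from marker UMIs as stated above. Counts were summed per class and library and divided by the class total. Ratios carry exact conditional 95% intervals (scipy 1.17.1, Python 3.11.15). A ratio was called with at least 20 UMIs in both classes together, a 2-fold difference and an interval without 0, and a class with no UMI was set to 3 counts. The calculation was tested on simulated data. Barcodes most like simulated doublets (10 in sham, 119 in MOV) were kept and left out as an alternative.

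The 10 genes, the other lists and the alternatives were chosen with earlier results of these data known. Named were the 10 genes in all classes, the highest 2 and lowest 2 called genes of a list, of which the text prints a part, and the 4 genes most like each of 5 members among genes with a mean of at least 20 CPM. Klhl41 was followed over more classes after its values were seen. Alternatives were a limit of 10% mitochondrial UMIs, removal of doublet-like barcodes, at least 1000 UMIs per barcode, other gates, totals without mitochondrial genes, TMM factors (edgeR 4.0.16) and median-of-ratios factors (DESeq2 1.42.0), both in R 4.3.3. Leaving out barcodes of both libraries, fibre droplets with marker RNA of other states, and the mean of droplet CPM were added after seeing the data. Gene positions are from GENCODE vM21 (GRCm38). Intervals cover counting error only, and the 1 library per condition cannot be told apart from the surgery.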

Additional observations from a re-analysis of the deposited data

Results flagged for a closer look

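Fbxo32 and Fbxo30 had MOV over sham ratios that went one way in MuSCs and the other way in fibre droplets with intervals that left out 0 in both. The log2 ratio of Fbxo32 was 2.41 in MuSCs (1135 and 6 UMIs) and -1.23 in fibre droplets (16 and 321 UMIs). That of Fbxo30 was -0.53 in MuSCs, under 2-fold, and 4.17 in fibre droplets, where it rested on 19 and 9 UMIs. With 1 library per condition the differences between the classes were not tested. The fibre value of Fbxo32 turned to 0.23 when each droplet was weighted equally. Without fibre droplets that held a UMI of Myog, Myh3, Myh8, Pax7 or Myf5 it was -0.66, with an interval that held 0 (-1.68 to 0.20). Fbxo30 then had too few UMIs in fibre droplets for a call.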

How the results depend on the processing

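The 51 called ratios of the 10 genes were recomputed under up to 13 alternatives each, which gave 658 values. Of these 655 had the same direction and 631 were still called, counting calls in either direction. The 631 include the reversed Fbxo40 value named below, which was a call in the opposite direction. Between fibre droplets of MOV and sham, Fbxo32 reversed to 0.23 with the mean of droplet CPM and Cavin4 to -0.64 without droplets that held a UMI of Myog, Myh3, Myh8, Pax7 or Myf5, and between Myh1-dominant droplets Fbxo40 reversed to 1.32 with the mean of droplet CPM. The mean of droplet CPM has no interval, so that a call there rests on 2-fold alone, a looser rule. The number of genes called between all fibre droplets, 6 as reported, was 1 under either of these alternatives. With the mean of droplet CPM, 5 genes were called between MOV and sham MuSCs in place of 2, and 1 between Myh2- and Myh4-dominant droplets in place of 0. What part the looser rule has in these counts was not tested. For Myh2- over Myh1-dominant droplets, Fbxo40 ran from -1.37 to 1.01 over the 13 alternatives and was called in 2. Cavin4 ran there from 0.52 to 1.13 and was called in 1. Of the 27 values no longer called, 15 were of MOV over sham in fibre droplets and 6 of MOV fibres over late myocytes, and Nedd4 in MOV fibres over MuSCs was at -0.83 with median-of-ratios factors. Asb5 in MuSCs stayed between -2.61 and -2.04 and Fbxo32 between 1.91 and 2.46 for MOV over sham in all 13. TMM factors moved the ratios of sham fibres over MuSCs by 0.87, of MOV over sham by -0.80 in fibres and 0.34 in stromal droplets, and of Myh2 over Myh4 by -0.41.

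No paired analysis was possible because each condition is 1 library. Leaving out a library would leave a condition empty and was not run.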

Other observations

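Many barcodes met none of the gates, 561 in sham and 1893 in MOV. In sham they held 38.6% of all Asb5 UMIs (1308 of 3391), 48.5% of those of Fbxo30 and 39.5% of those of Nedd4, and in MOV 14.6% of Asb5 (3258 of 22263) and 23.6% of Nedd4. Their Asb5 level was 461 CPM in sham and 151 CPM in MOV. The median share of mitochondrial UMIs in these sham barcodes was 13.8%, against 1.86% in sham fibre droplets. Among the marker lists, erythroid markers were highest in these sham barcodes, at 33336 CPM with a median droplet of 0. Fibroblast markers were at 4333 and mural markers at 3448 CPM. The same barcodes held 564 of the 1197 sham Myod1 UMIs and 102 of the 262 of Chrdl2, but 22 of the 215 of the gate gene Pax7. Which of these cells the Asb5 UMIs came from was not tested.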
